A study of Mus musculus with 96 samples.

Results

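The genes described here are the 5029 autosomal genes, of 34850 autosomal genes in the count tables, whose mean NOD + PWK count over 48 mice was 100 or more. Each mouse was a first-generation hybrid with 1 NOD/ShiLtJ and 1 PWK/PhJ copy of every autosomal gene, and the question was how unequally those copies contributed to liver mRNA. For each gene and mouse the PWK share was the PWK count as a percentage of the NOD + PWK count, and the pooled share was the same percentage after summing all 48 mice. A pooled share of 90% or more, or of 10% or less, is called strong imbalance here and equals a ratio of at least 9-fold. A share from 66.7% to under 90%, or from over 10% to 33.3%, is called 2-fold to 9-fold imbalance. The counts are expected counts, meaning reads divided between genes and alleles by a statistical model when they matched more than 1.

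RNA came from whole liver of male mice in 8 groups of 6. The groups combined cross direction (NODxPWK or PWKxNOD, where the first-named strain is read as the mother), diet and age. The diet held 0.009 g/kg cholecalciferol (normal vitamin D) or 0.050 g/kg (high vitamin D) and was otherwise matched. The age labels are 8 for one set and 24 or 25 for the other with no unit, while the growth protocol names 15 and 24 weeks, so the sets are called younger and older. The labels name the cross of inbred strains and no transgene or engineered deletion. Poly(A) RNA was made into unstranded libraries and read as single 68-base ends, and each mouse's library was run 2 times.

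In a hybrid, both alleles of a gene sit in the same nuclei and meet the same transcription factors, hormones and diet. A difference in the level of their transcripts is therefore usually described as a cis difference, one that lies on the chromosome itself, in a promoter, enhancer, splice site or the stability of the transcript. NOD is a laboratory strain that develops autoimmune diabetes, and PWK is derived from wild mice of the subspecies Mus musculus musculus, so their genomes differ at many sites. An allele is counted through reads that cover such sites, and a gene without them gives the same count for both alleles.

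Between 2.03 and 7.48 M (M, 1e6) counts were assigned per mouse (median 5.27 M). The summed level of 17 hepatocyte markers was 91374 to 157119 CPM (counts per M assigned), against 515 to 784 for 12 liver endothelial markers and 146 to 294 for 14 Kupffer cell and macrophage markers. In 15 markers of exocrine pancreas the sum ran from 16.9 to 2201 CPM, with a median of 32.5. In whole tissue, fewer cells of a type and less RNA per cell cannot be told apart, and an allele share averages over all cells that express the gene. Males carry their dam's X chromosome alone, so X-linked genes showed how often a read was assigned to an absent allele. Among 107 X-linked genes with a mean count of 100 or more and at most 20% of their sequence windows shared with another gene, the median share given to the absent allele was 0.656%. It was at most 10% in 99 of the 107 genes and above it in 8. In Igbp1, a phosphatase regulator, the absent allele received 48.1% of the counts and in Ssr4, a subunit of the translocon complex, 48.1%. The windows are all 68-base stretches of a gene's annotated transcripts, compared with the transcripts of every other gene. In 13 X-linked genes with over 20% of windows shared, the median share of the absent allele was 43.6%.

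Most liver genes had similar counts assigned to both alleles. The median pooled PWK share was 50%, the middle 50% of genes lay between 46.8% and 52.8%, and 3411 genes (67.8%) lay between 45% and 55%. In 239 genes the NOD and PWK counts were equal in every mouse, so their share of 50% carries no information on expression. Of the 5029 genes, 2626 differed between alleles in edgeR's quasi-likelihood test with Benjamini-Hochberg adjustment over all 9362 autosomal genes fitted, of which 43.6% passed. PWK was higher in 1251 genes (20.9% of the 9362 passed in that direction) and NOD in 1375 (22.8%). Scaling the NOD and PWK columns separately with TMM factors turned that order around, with 1358 genes higher from PWK and 1271 from NOD, while the median log2 ratio moved by 0.02. The differences were mostly small. The median size among the 2626 genes was 0.35 on the log2 scale, and 1200 of them (45.7%) differed by less than 1.25-fold.

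Larger imbalance was found in 335 genes. Strong imbalance favoured PWK in 52 genes and NOD in 51, and 2-fold to 9-fold imbalance favoured PWK in 130 genes and NOD in 102. With the alleles scaled to the same autosomal total, the latter counts were 157 and 74. In the test of a ratio beyond 2-fold (edgeR's glmTreat, adjusted over the 9362 genes), 153 genes passed with PWK higher, against 3.28% of all genes fitted. A further 128 passed with NOD higher, against 3.02%. The share of genes at 2-fold or more changed little with the level of the gene. Among genes with few shared windows it was 4.85% of 2765 genes with a mean count of 100 to 300, 4.81% of 1248 genes from 300 to 1000, and 6.42% of 483 genes above that. All 19 autosomes held at least 1 strongly imbalanced gene.

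**Figure D1:**
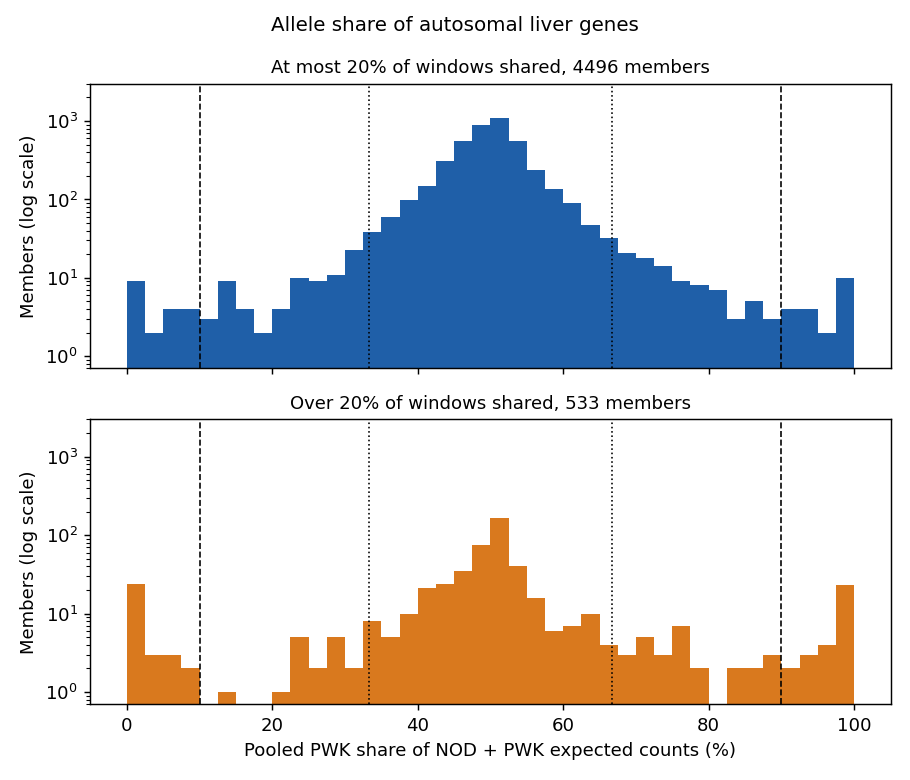
Number of genes (log axis) by pooled PWK share in percent, in bins of 2.5 percentage points, for 4496 genes with at most 20% of windows shared with another gene (top) and 533 genes with more (bottom). Dashed lines mark 10% and 90%, dotted lines 33.3% and 66.7%; both distributions peak at 50%, and strong imbalance holds 0.867% of the genes in the top panel and 12% in the bottom panel.

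Genes of the strong classes often shared sequence with other genes. Over 20% of windows were shared in 32 of the 52 genes strong for PWK and in 32 of the 51 strong for NOD, against 533 of all 5029 genes (10.6%). Pseudogenes made up 26.9% of the strong PWK class and 35.3% of the strong NOD class, against 1.93% of all genes. Their exonic length was also short, with medians of 1427 and 1361 bases against 4794 for all genes. The part that misassigned reads have in these shares was not tested. The 20 PWK and 19 NOD genes with few shared windows are therefore the ones described by name first. In 4 of these 20 and in 3 of these 19, the weaker allele received at most 0.656% of the counts, the median given to an absent allele on the X. In those 7 genes, expression from 1 allele alone cannot be told apart from a very low level of the other. The 90th percentile of the share given to an absent allele on the X was 4.36%. A weaker allele above the median can therefore fall under the same limit, and the comparison does not show which of these genes express both alleles.

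Of the strong PWK genes with few shared windows, Hamp2 had the highest count. Hamp2, a paralogue of the iron hormone hepcidin (chr7:30922372-30924681 in GRCm38), had 4132 PWK counts and 137 NOD counts per mouse on average. Its PWK share was 92.6% in the lowest mouse, 97.7% in the median mouse and 100% in the highest. Hepcidin itself, Hamp, stood at 60.4%. Cyp2c23, an epoxygenase of arachidonic acid (chr19:44005022-44029208), had 1257 PWK against 71.5 NOD counts, and its share ran from 91.7% to 97.5% over the 48 mice. All 48 mice were above 90% for both genes. Mup6, of the major urinary protein family of pheromone carriers (chr4:59964294-60007274), had a pooled share of 97.8% and a range of 95.1% to 98.8%. Ces2h, a carboxylesterase of the Ces2 cluster (chr8:105000853-105021178), reached 99.5%, with 309 PWK and 1.71 NOD counts.

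Several strong PWK genes encode proteins with other roles. Hjurp, the chaperone that deposits the centromeric histone CENP-A (chr1:88262471-88277633), had 1455 PWK and 92.6 NOD counts, and its share lay between 90.9% and 98.6% in all mice. Akr1c18, a hydroxysteroid dehydrogenase that inactivates progesterone (chr13:4132615-4150654), had 206 PWK counts and 1.01 NOD counts per mouse. Pctp, a phosphatidylcholine transfer protein (chr11:89982665-90002894), had a share of 92.1%, with 83.8% in the lowest and 99.0% in the highest mouse. Gsn, the actin-severing protein gelsolin (chr2:35256380-35307892), varied most among the 12, from 75% to 100%, with 27 of 48 mice at 90% or more. Dntt, the lymphoid enzyme that adds random nucleotides at V(D)J joints (chr19:41029275-41059525), had 168 PWK and 3.73 NOD counts. Mmd2, a membrane protein of the progestin and adipoQ receptor family (chr5:142562358-142608800), stood at 97.7%. The ribosomal protein genes Rps29 (chr12:69157722-69159186) and Rpl34 (chr3:130726831-130730398) stood at 98.6% and 96.3%. Of these 8 genes, none had a mouse on the NOD side of 50%.

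The strong NOD genes included several secreted liver proteins. Mup3, another major urinary protein (chr4:62083476-62087342), had 16885 NOD and 394 PWK counts, and its PWK share stayed between 1.14% and 4.44% in all 48 mice. Orm1, the acute phase protein orosomucoid (chr4:63344560-63348163), had 1227 NOD and 18.5 PWK counts, with shares from 0.00% to 5.90%. Cpb2, a carboxypeptidase that slows fibrinolysis (chr14:75242287-75283555), lay nearer the limit. Its share was 1.29% in the lowest mouse, 8.52% in the median mouse and 14.6% in the highest, and 32 of 48 mice were at 10% or less. Wfdc21, a small secreted protein with a whey acidic protein domain (chr11:83746940-83752642), had 632 NOD and 7.14 PWK counts.

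The other leading NOD genes had varied roles. Cyp4f14, which hydroxylates leukotriene B4 (chr17:32905070-32917342), had 1145 NOD and 21.3 PWK counts and a share between 0.551% and 4.77%. Ugt3a2, a glycosyltransferase (chr15:9335550-9370955), had 781 NOD and 3.71 PWK counts. Sdr9c7 (chr10:127898518-127911761) and Rdh16 (chr10:127801152-127846565) are neighbouring dehydrogenases of the retinol dehydrogenase group, and both favoured NOD. Their pooled PWK shares were 0.279% and 8.81%, and Rdh16 ranged from 0.00% to 22.8% over the mice. Mat2a, which makes the methyl donor S-adenosylmethionine (chr6:72432799-72439558), had 292 NOD and 9.57 PWK counts. Its share was 0.0802% in the lowest mouse and 1.66% in the median mouse, and 1 mouse, the one with the lowest depth, stood at 50%. Camk1d, a calcium-dependent kinase (chr2:5293457-5714515), Rassf4, a Ras-association protein (chr6:116633008-116673952), and the ribosomal protein gene Rpl37 (chr15:5116645-5119140) had shares of 1.27%, 5.42% and 0.895%.

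**Figure D2:**
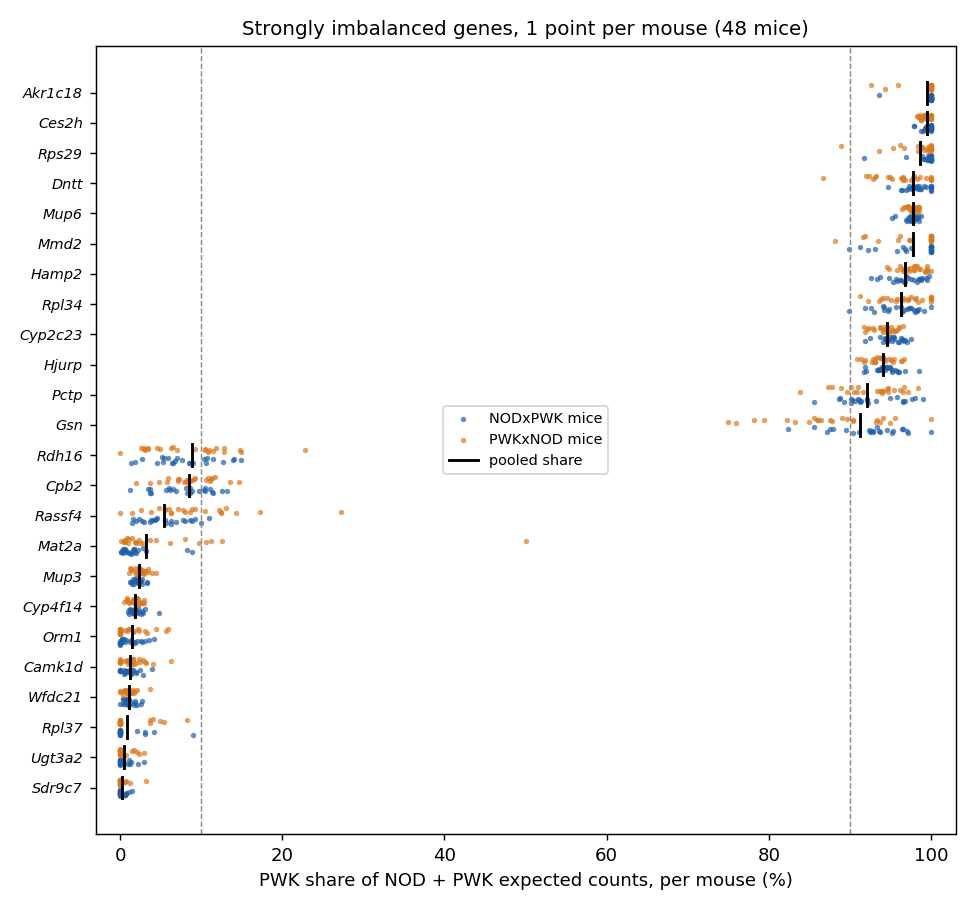
PWK share in percent (x axis) of the 12 genes with the highest counts in each strong class, with 1 point per mouse, blue for the 24 NODxPWK mice and orange for the 24 PWKxNOD mice, a black line at the pooled share and dashed lines at 10% and 90%. The points of both crosses lie on the same side of 50% for every gene, except 1 mouse of Mat2a at 50%.

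Among strong genes that share more of their sequence, members of 1 family often pointed in opposite directions. In the Serpina1 group, which encodes alpha-1-antitrypsins, Serpina1c (chr12:103894926-103904887, 75.3% of windows shared) had a PWK share of 0.0742%. Serpina1e (chr12:103946931-103958975, 22.5% shared) had 99.0%, while the 5 genes summed gave 51.3%, with 48.5% to 54.1% over the mice. The largest cluster of strong genes, 7 lying less than 1 Mb from the next, was the Mup locus on chromosome 4, with 2 genes strong for PWK and 5 for NOD. There Mup7 (chr4:60066469-60070475), Mup10 (chr4:60578260-60582199), Mup16 (chr4:61515592-61519531) and Mup18 (chr4:61670177-61674136) all favoured NOD, and 82.9%, 74.6%, 88.1% and 87.6% of their windows were shared. Mup18 had 47877 NOD and 0.671 PWK counts per mouse, and 46 Mup genes and pseudogenes summed gave a PWK share of 28.1%. Cytosolic ribosomal protein genes and their pseudogenes showed the same contrast between single genes and their sum. Rps6 and Rpl19, with 42.7% and 52.6% of windows shared, had PWK shares of 99.6% and 99.9%, and 264 ribosomal protein genes and pseudogenes summed gave 52.5%. A family's summed share does not depend on how reads were divided among its genes, provided that they stayed on the same allele.

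The ends of the scale were held by genes whose weaker allele received under 1 count in all mice together. The 3 highest shares belonged to Gm10020, Gm6863 and Gm9790, each at 100%, and the 3 lowest to Atp5g2, Gm4459 and Gm7666, each at 0.00%. All but Atp5g2, a subunit of ATP synthase with 36.5% of windows shared, shared 62.4% of their windows or more. Genes next to the limits were as follows. Rpl29 had 90.3% and H2-Bl, a class I histocompatibility gene, 89.7%. Cyp2c70 had 66.8% and Mpc1, a mitochondrial pyruvate carrier subunit, 66.6%. Sucnr1, the succinate receptor, had 33.3% and Cnpy3, a chaperone of Toll-like receptors, 33.4%. Hsd3b2, a hydroxysteroid dehydrogenase, had 9.80% and Plekhb1 10.3%.

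Genes with 2-fold to 9-fold imbalance included abundant plasma proteins and enzymes on the PWK side. Hpx, the haem scavenger haemopexin (chr7:105591613-105600137), had 13055 PWK and 6198 NOD counts, and its PWK share ran from 60.7% through a median of 68.5% to 72.5%. Fetub, a protease inhibitor of the fetuin family (chr16:22918334-22939778), had 77.8%, and all 48 mice lay between 71.0% and 83.4%. The inter-alpha-trypsin inhibitor chain Itih3 (chr14:30908572-30923760) had 67.4%. Hc, which encodes complement C5 (chr2:34983331-35061438), had 74.3%, and NOD is known to carry a C5-deficient allele. Cytochromes P450 on this side were Cyp2a12 (chr7:27029081-27037375), Cyp2c37 (chr19:39992424-40012243), Cyp7b1, an oxysterol hydroxylase (chr3:18071950-18243338), and Cyp2c70, a bile acid hydroxylase (chr19:40153353-40187333). Their shares were 78.7%, 78.0%, 67.9% and 66.8%. Hpx, Fetub, Itih3, Hc, Cyp2a12, Cyp2c37 and Cyp7b1 passed the test beyond 2-fold, with adjusted p-values from 7.29e-26 to 0.00663, and Cyp2c70 at a log2 ratio of 1.00 ± 0.02 (SE) did not.

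On the NOD side of the 2-fold to 9-fold range, Iigp1, an interferon-induced GTPase (chr18:60376027-60392634), had 1359 NOD and 233 PWK counts. Its PWK share was 9.91% in the lowest mouse, 14.4% in the median mouse and 20% in the highest, so every mouse was beyond 2-fold towards NOD. Nat8f2, an N-acetyltransferase (chr6:85865422-85869158), had 19.3%, and Abca3, a phospholipid transporter (chr17:24351950-24410201), 23.7%. Ces3b, a carboxylesterase (chr8:105083753-105093929), had 28.4%. The retinaldehyde dehydrogenase Aldh1a1 (chr19:20492715-20643465) had 30.7%, the soluble epoxide hydrolase Ephx2 (chr14:66084374-66124500) 31.7%, the phytanic acid hydroxylase Phyh (chr2:4919019-4938730) 32.9% and the male-biased steroid dehydrogenase Hsd3b5 (chr3:98618634-98630252) 33%. Phyh and Hsd3b5, at log2 ratios of -1.03 ± 0.01 and -1.03 ± 0.03 (SE), could not be told from 2-fold (edgeR's glmTreat, adjusted p = 0.147 and 0.795). The other 6 passed that test. In all, 26 of the 130 PWK and 20 of the 102 NOD genes of this range did not pass it.

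The share of genes with imbalance of 2-fold or more is given next for functional lists, beside that of all genes and with no test. Across all 5029 genes it was 6.66% (5.00% of the 4496 with few shared windows), and the median size of the log2 ratio was 0.17. Among carboxylesterases, which cleave esters of drugs and lipids, it was found in 6 of 13 genes (46.2%), with a median size of 0.61. On their NOD side, Ces2a and Ces2e had PWK shares of 12.1% and 13.6%, against 99.5% for Ces2h of the same cluster. Among conjugation enzymes, which attach glucuronate, sulfate, glutathione or acetyl groups, it was found in 17 of 38 genes (44.7%; median size 0.85). There 4 genes were strong for NOD, with Ugt3a2, Gstm3 and Ugt1a6b at 0.473%, 0.692% and 3.55%, and none for PWK. Gstm3 and Ugt1a6b shared 23.6% and 76.0% of their windows, and 11 of the 17 genes had few shared windows. Among cytochromes P450 it was found in 17 of 43 genes (39.5%; median size 0.59), of which 10 had few shared windows. Cyp2c40 and Cyp2a4 were at 99.7% and 99.4% and Cyp2d11 at 1.05%, with 49.4%, 25.9% and 25.1% of windows shared.

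Plasma proteins and reductases followed. Of 39 acute phase and plasma proteins, 12 (30.8%) were imbalanced by 2-fold or more, and 7 of these 12 had few shared windows. PWK was favoured by 9, with Serpina1e and Hamp2 farthest, and NOD by 3, which were Serpina1c, Orm1 and Mup3. Of 39 aldo-keto, aldehyde and alcohol reductases, 10 (25.6%) were imbalanced by 2-fold or more, and all 10 had few shared windows. Farthest from an even ratio were Akr1c12 at 6.51%, Hsd3b2 at 9.80% and Fmo2, a flavin monooxygenase, at 91.1%. Akr1c18, which is not in that list, lies less than 1 Mb from Akr1c12 and had 99.5%. Of 26 genes known to differ between male and female liver, 8 (30.8%) were, 4 of them with few shared windows. Mup3, Cyp2a4 and Moxd1, a copper monooxygenase at 24.1%, lay farthest from an even ratio. Moxd1 counts ran from 0 to 1657 per mouse, its median share was 11.6%, and the pooled shares of the groups ran from 7.30% to 34.5%. Of 65 cytosolic ribosomal proteins, 18 (27.7%) were, but only 4 of these 18 had few shared windows.

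In the immune, metabolic and transport lists given next the share ran from 2.38% to 23.1%, against 6.66% of all genes. The class I gene H2-K1 had a PWK share of 14.1% among 13 antigen presentation genes, of which 2 (15.4%) were imbalanced by 2-fold or more. Of 24 complement genes 3 (12.5%) were, with Hc, C4a at 3.20% and the complement inhibitor Cd59a at 25.7%. Of 14 genes of the interferon response 2 (14.3%) were, Iigp1 and Irgm2 at 67.3%. Among 62 genes of amino acid metabolism and the urea cycle 5 (8.06%) were, including Bhmt (27.6%) and Ahcy (88.1%), which remethylate and recycle homocysteine. Their shared windows were 22.8% and 66.5%. Of 13 vitamin D and retinoid genes 3 (23.1%) were, with Rdh16 farthest, and of 14 purine and pyrimidine breakdown genes 2 (14.3%) were, with Urad, an enzyme of urate breakdown, at 74.0%. Of 29 genes of cholesterol and bile acids 2 (6.90%) were, with Msmo1, a sterol demethylase, at 22.4%. Of 42 solute and drug transporters 1 (2.38%) was, the sterol transporter subunit Abcg5 at 24.3%. Of 24 coagulation genes 1 (4.17%) was, Cpb2. In glucose metabolism 3 of 30 (10%) were, with Pgam1 at 78.0%, Pfkl at 76.1% and Igfbp1 at 68.2%. Not all of these imbalanced genes had few shared windows. Those that did were 1 of 2 in antigen presentation, 2 of 3 in complement and 2 of 5 in amino acid metabolism. They were also 2 of 3 vitamin D and retinoid genes and 2 of 3 in glucose metabolism.

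Some lists held no gene at 2-fold or more. None of 34 genes of fatty acid oxidation and ketogenesis, 31 of the proteasome, 31 of stress and the unfolded protein response or 12 of the clock reached 2-fold. Lists of this size would hold few such genes at the 6.66% of all genes, so their absence is not set apart from that share. The median size of the log2 ratio was 0.25, 0.08, 0.13 and 0.15 in these lists, so that of fatty acid oxidation was above the 0.17 of all genes. The farthest were Slc25a20, the carnitine carrier, at 36.1%, Psma3 at 62.4%, Hspa8 at 40.8% and Bhlhe40 at 42.7%. In oxidative phosphorylation 5 of 72 genes (6.94%) were imbalanced by 2-fold or more, and the median size was 0.12. Farthest were Atp5g2, Cox5b at 83.0% and Cox7c at 23.9%, and 2 of the 5 genes had few shared windows. Of 17 hepatocyte markers 1 was, Serpina1a at 73.4%. None of the 3 Kupffer cell, 4 stellate cell and 9 endothelial markers with enough counts reached 2-fold. So few markers cannot be set against the 6.66% of all genes. These lists were drawn up with earlier results of these data known.

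**Figure D3:**
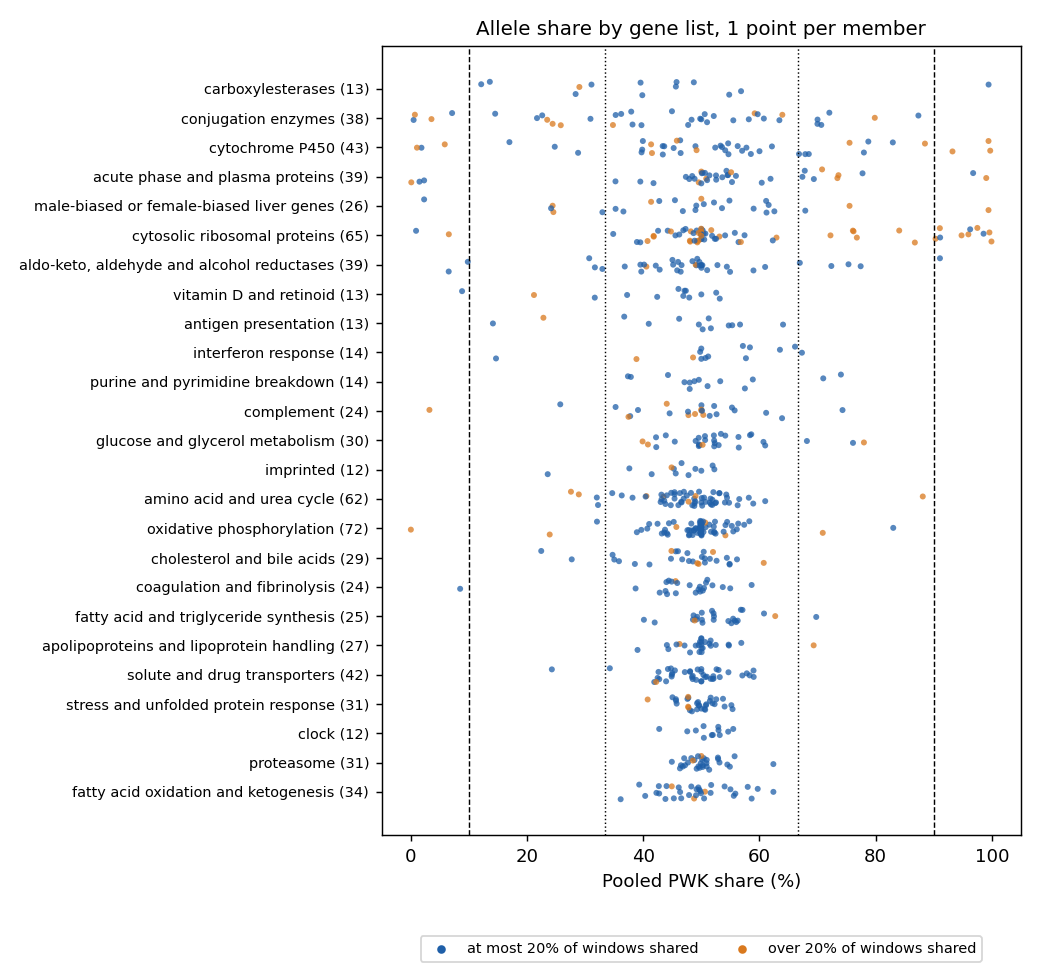
Pooled PWK share in percent (x axis) of every gene with a mean count of 100 or more in 25 functional lists, ordered by the percentage at 2-fold or more, with the number of genes in brackets, blue for genes with at most 20% of windows shared and orange for more. Carboxylesterases run from 12.1% to 99.5%, conjugation enzymes from 0.473% to 87.4% and cytochromes P450 from 1.05% to 99.7%, and fatty acid oxidation, proteasome and clock genes lie between 36.1% and 62.4%.

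Strong imbalance was largely the same in all 8 groups. The classes were set by the pooled share of these same 48 mice, so agreement of groups and mice with them was partly fixed in advance. Of the 52 strong PWK genes 44 had a share of 90% or more in every group, and of the 51 strong NOD genes 39 had 10% or less in every group. The fewest groups beyond the limit were 3 of 8 for Hsd3b2 and 4 of 8 for Fmo2. The median range of the share between the highest and the lowest group was 1.87 percentage points in the strong PWK class and 1.30 in the strong NOD class. It was 8.82 and 8.69 percentage points in the 2-fold to 9-fold classes for PWK and NOD, 8.06 in genes under 2-fold and 8.00 in all genes. Shares near either end of the scale have little room to move in percentage points. The smaller ranges of the strong classes therefore do not show a steadier ratio. A 2-fold imbalance was kept in every group by 76 of 130 PWK and 59 of 102 NOD genes of the 2-fold to 9-fold range. Every strong gene favoured the same allele in all 48 mice, except Mat2a with 47 of 48. In the 2-fold to 9-fold classes 86 of 130 PWK genes and 66 of 102 NOD genes did so, and the gene with the fewest mice on its side had 36 and 38 of 48.

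The reciprocal crosses gave independent mice for the same question. When the classes were set in the 24 NODxPWK mice, 49 of 53 strong PWK genes and 50 of 52 strong NOD genes fell in the same class in the 24 PWKxNOD mice. Of the 2-fold to 9-fold genes, 110 of 130 for PWK and 90 of 105 for NOD did. Across 4346 genes with few shared windows and unequal counts, Pearson's r of the log2 ratio was 0.919 between the crosses, 0.960 between the ages and 0.970 between the diets. These values run across genes, which are not independent replicates, and are given as a description. Single mice gave noisier classes. In 42 mice with 4.10 M counts or more, 111 to 160 genes fell in a strong class, and in the 6 mice of the barcode with the lowest depth (2.03 to 3.09 M counts) 195 to 287 did.

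**Figure D4:**
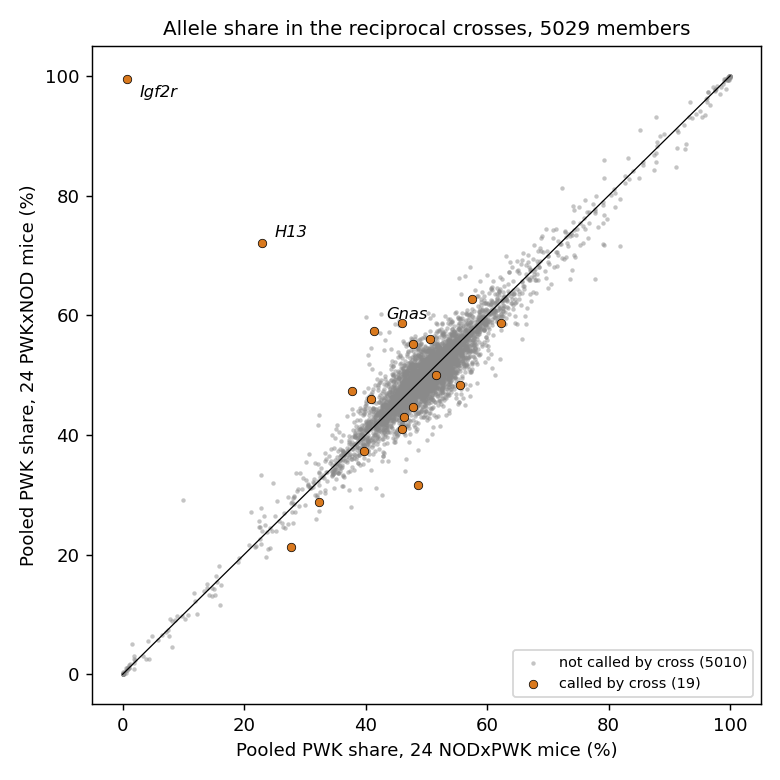
Pooled PWK share in percent of the 5029 genes in 24 NODxPWK mice (x axis) and 24 PWKxNOD mice (y axis), with the line of equality; orange points are the 19 genes whose ratio differed between crosses. Most genes lie near the line at all shares, and Igf2r (0.793% and 99.5%) and H13 (22.9% and 72.1%) lie far from it.

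The allele ratio differed with age in 62 of the 5029 genes (edgeR's quasi-likelihood test of the interaction, adjusted over the 9362 genes, of which 0.705% passed). The PWK share was higher in older mice in 32 genes and lower in 30. Few windows were shared in 55 of the 62, a proportion like that of all genes (4496 of 5029). The median size of the change in the log2 ratio was 0.31. Haao, an enzyme that makes quinolinate from tryptophan (chr17:83831156-83847963), moved from one side of an even ratio to the other. Its PWK share was 35.9%, 45.2% and 51.8% in the lowest, median and highest younger mouse and 49.9%, 57.2% and 62.9% in the older mice. The groups overlapped only between 49.9% and 51.8%, and the log2 ratio changed by 0.72 ± 0.07 (SE, adjusted p = 3.8e-10, edgeR). Ttr, the thyroxine and retinol carrier transthyretin, went the other way, from a median of 50.2% (46.8% to 52.0%) in younger mice to 46.2% (44.2% to 48.7%) in older mice. Its log2 ratio changed by -0.23 ± 0.02. Pigr, the receptor that carries polymeric IgA into bile, rose from a median of 60.3% to 63.2%. Atp11a, a phospholipid flippase, fell from a median of 82.1% (77.2% to 90.6%) to 70.1% (59.0% to 80.2%).

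Of the strongly imbalanced genes 6 changed with age. For Hamp2 the median PWK share was 96.2% in younger and 98.8% in older mice, while its mean level fell from 1063 ± 218 to 583 ± 230 CPM (SD, n = 24 each). Its paralogue Hamp, not strongly imbalanced but also among the 62 genes, went the other way. The median PWK share of Hamp was 63.2% in younger and 58.1% in older mice, a log2 change of -0.31 ± 0.04 (SE). Orm1 had 35.4 PWK counts of 26684 in all younger mice together and 852 of 33111 in older mice, shares of 0.133% and 2.57%. Its level was 213 ± 21.6 and 262 ± 66.8 CPM, and 15.7% of its windows were shared. In Mmd2 the weaker NOD allele had 225 counts in younger and 25.6 in older mice. At both ages the pooled weaker-allele shares of Orm1, Mmd2 and Hamp2 lay under 4.36%, the 90th percentile given to an absent allele on the X. The part of misassigned reads in these changes was not tested. The PWK share of Pctp, E2f7, a repressor of the cell cycle, and Cyp2c23 fell from 94.5% to 90.3%, 96.5% to 91.5% and 95.5% to 93.9%. Adjusted p-values (edgeR) were 1.7e-07 for Hamp2, 2.2e-08 for Orm1, 0.00736 for E2f7, 0.00796 for Pctp, 0.0184 for Mmd2 and 0.0234 for Cyp2c23. The count of 62 fell to 39 without lane set 1 and to 36 without lane set 6, a lane set being the 8 mice, 1 per group, that shared sequencing lanes. DESeq2's Wald test called 75. Without the 7 older mice labelled 25, all on the normal diet, 47 genes passed, of which 30 were among the 62. In that setting E2f7, Pctp, Mmd2 and Cyp2c23 no longer passed.

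**Figure D5:**
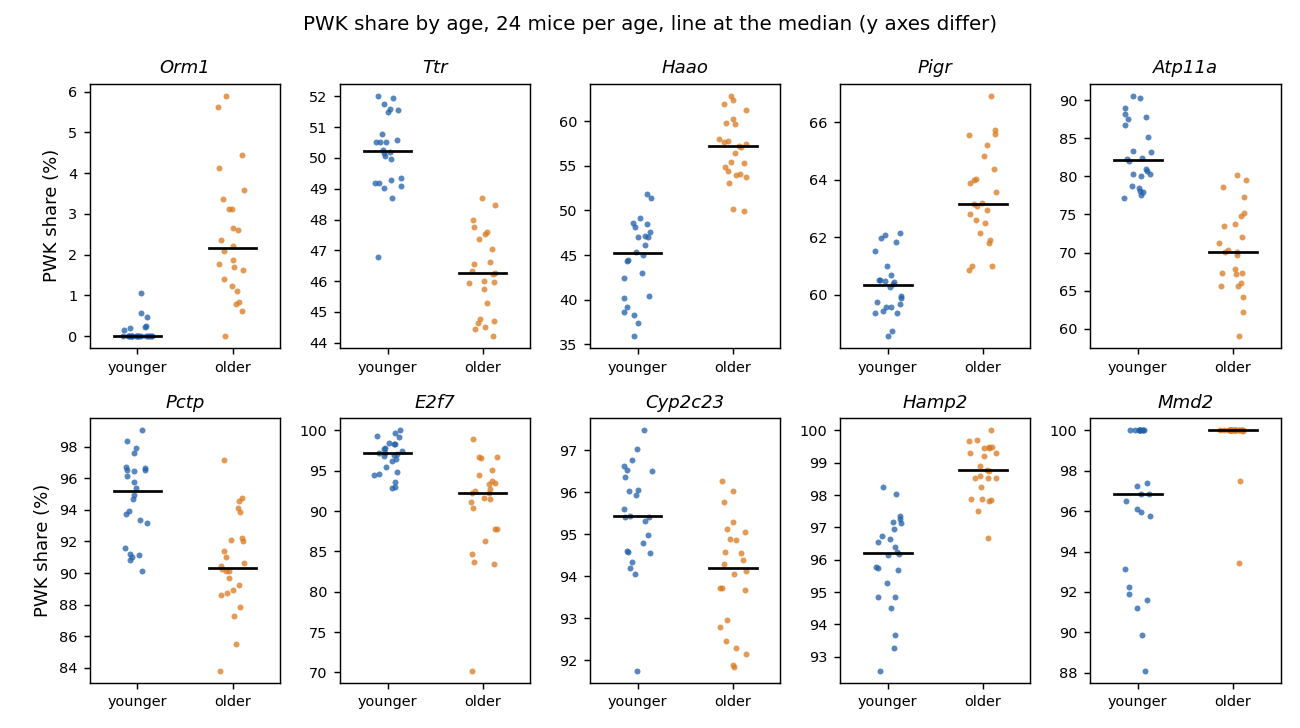
PWK share in percent (y axes, which differ) of the 10 genes named for a ratio that changed with age, with 1 point per mouse for 24 younger (blue) and 24 older mice (orange) and a line at the median. Haao, Pigr, Orm1, Hamp2 and Mmd2 were higher in older mice and Ttr, Atp11a, Pctp, E2f7 and Cyp2c23 lower, with overlap between the ages in every gene.

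Diet and cross changed the ratio of few genes. With diet 2 of the 5029 genes passed (0.0214% of all genes fitted), and both had a lower PWK share on high vitamin D. Serpina1a, an alpha-1-antitrypsin, went from a median of 75.6% (71.5% to 78.9%) on the normal diet to 71.2% (62.3% to 77.3%) on the high diet, and 51.5% of its windows were shared. Gstt1, a glutathione transferase, went from a median of 52.8% (49.3% to 57.6%) to 48.7% (43.7% to 53.6%). The diets overlapped in both genes. The changes in the log2 ratio were -0.32 ± 0.06 and -0.24 ± 0.04 (SE), and neither passed without lane set 2 or without lane set 6. With 7 older mice labelled 25 left out, 10 genes passed and Serpina1a did not. Between the crosses 19 genes differed (0.267% of all genes fitted), and none was strongly imbalanced in the pooled share. Among the leading ones were Igf2r, H13 and Gnas, which are known to be imprinted. The PWK share of Igf2r was 0.793% where PWK was the sire and 99.5% where it was the dam. Leaving out lane sets 1 and 6 reduced the 19 genes to 12 and 11, and DESeq2's Wald test called 35. Without the mice labelled 25, 20 genes passed, of which 8 were among the 19.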

How the data were processed

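The authors deposited, per mouse, expected counts per gene for the NOD and the PWK allele from EMASE, a model that divides reads among genes, alleles and isoforms. The submitters' processing notes name CASAVA 1.7.0, Bowtie 1.1.2, GRCm38 and mm10. For EMASE, the version, annotation and filters were not given in the sources used here. Both runs of a mouse are summed in the deposited counts.

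Expected counts were rounded and fitted with edgeR 4.0.16 for 9362 autosomal genes with a mean count of 20 or more. Each mouse was a fixed effect, both alleles of a mouse had the same library size, and each of the 8 groups had its own PWK over NOD coefficient. The quasi-likelihood test and glmTreat (2-fold) were adjusted by Benjamini-Hochberg at a threshold of 0.05. The mice are separate animals. Coordinates, biotypes and sequence windows came from the GENCODE M21 annotation of GRCm38, which matched 37607 of 38924 genes. The scripts were tested on simulated data. Depth was 2.03 to 7.48 M counts per mouse, which limits the precision of single-mouse shares.

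The members and gene lists were chosen with earlier results of these data known. Named are, in each class, the highest-count protein-coding genes with an ordinary symbol, at most 20% of windows shared and no exon overlap with another coding gene (12 in each strong class, 8 in each 2-fold to 9-fold class). Also named are the 3 highest and 3 lowest shares, up to 3 genes per list farthest from an even ratio, genes next to each limit, and the leading and strongly imbalanced genes of each contrast. Others (Hamp, Mup genes, Serpina1 genes, X-linked genes) were named after their values were seen. A gene that the rule names in the contrast between crosses is not reported here. Libraries were unstranded, so overlapping and antisense genes cannot be told apart.

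Replicate numbers 1 to 6 are lane sets in the labels. Deviations of mice correlated by a mean of 0.0022 within lane sets (168 pairs) and -0.00041 between them, and 1 pair exceeded 0.1. Alternatives covered scaling, filters, rounding, lane sets, mice left out, DESeq2 1.42.0 and limma 3.58.1.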

Additional observations from a re-analysis of the deposited data

Results flagged for a closer look

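Outlying mice were sought with Dixon's test in 60 sets of 6 values, 32 of summary measures and 28 of PWK shares of named genes that ranged over 10 percentage points or more in the group. Chance gives an outlier in about 1 in 20 groups where these are not picked by their range. That rate does not hold for the 28 sets of PWK shares, which an outlying mouse itself can bring over the limit. In all, 6 outliers were found. In the PWKxNOD older mice on the normal diet, replicate 1 had the lowest depth, 2.03 M counts, and the PWK share of Mat2a there was 50%. In the same group, 1 mouse stood apart with an Aldh1a1 share of 23.8%, and 1 with 3.60% of X-linked counts on the absent allele. In PWKxNOD older mice on the high diet 1 mouse had a Mat2a share of 11.2%. In NODxPWK younger mice on the high diet 1 mouse had a PWK share of 49.2% summed over genes with few shared windows.

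The PWK over NOD ratio of the named genes below differed between groups in edgeR's quasi-likelihood test of the difference itself. Older minus younger, the log2 ratio changed by -0.23 for Ttr, 0.19 for Pigr, 0.72 for Haao, -1.06 for Atp11a, -0.91 for Pctp, -1.49 for E2f7, -0.43 for Cyp2c23 and 1.66 for Hamp2. For Orm1 and Mmd2 the fitted values were 4.62 and 4.00, and they depend on the prior count because the weaker allele was close to 0. High minus normal vitamin D, it changed by -0.32 for Serpina1a and -0.24 for Gstt1. PWKxNOD minus NODxPWK, it changed by 1.03 for Gnas, 3.21 for H13 and 15.72 for Igf2r, the last again a value that depends on the prior count.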

How the results depend on the processing

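Single genes were run under the alternatives if named by count in a class or as leading or strongly imbalanced genes of a contrast. None of these changed direction, and the other named genes were not run. The balance of allele differences did turn with scaling, from 1251 PWK and 1375 NOD to 1358 and 1271 with TMM factors and to 1318 and 1314 with median-of-ratios factors. Leaving out genes with over 20% shared windows left 20 strong PWK and 19 strong NOD genes, 0.445% and 0.423% of 4496 genes. Among 4901 protein-coding genes the strong NOD class held 31 (0.633%). It held 32 of 2868 genes (1.12%) at a mean count of 200 or more, and the 2-fold to 9-fold NOD class held 66 of 3135 genes (2.11%) without genes whose exons overlap another gene. The 2-fold to 9-fold classes held 196 (PWK) and 167 (NOD) genes at a minimum of 50, and 78 and 60 at 200. Leaving out 1 lane set at a time gave 2467 to 2516 allele differences, 270 to 275 beyond 2-fold, 36 to 46 ratio changes by age, 0 to 2 by diet and 11 to 19 by cross. It gave 51 to 53, 125 to 133, 102 to 106 and 50 to 51 genes in the classes from PWK to NOD. At 0 for diet (edgeR, without lane set 2 or 6), 251 and 271 genes had an unadjusted p under 0.05. DESeq2 gave 35 genes by cross, and 10 genes passed by diet without the mice labelled 25; the cause was not tested. With the lane set as a replicate block, 2625, 271, 62, 19 and 2 genes passed for allele, beyond 2-fold, age, cross and diet. The block changed no call of the single genes run under the alternatives. For the single genes run under the alternatives, 983 values kept their call and 25 lost it with the same direction. Depth limits single-mouse shares most in the 6 mice with 2.03 to 3.09 M counts.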

Other observations

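Dntt is a lymphoid enzyme and Hjurp a centromere chaperone of dividing cells, and both were measured in whole liver almost entirely from the PWK allele. The summed level of Dntt was 5.23 CPM in the lowest mouse, 29.4 in the median mouse and 85.9 in the highest. Hjurp was at 175, 287 and 509 CPM. These genes were singled out after their values were seen.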
